A study of Mus musculus with 24 samples.

Results

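The transcripts described here are those of 10 genes whose products build or serve the sperm tail: the outer dense fibre genes Odf1, Odf2 and Odf4, the fibrous sheath genes Akap3, Akap4 and Gapdhs, and the late spermatid genes Smcp, Oaz3, Tppp2 and Spata18. They were taken by name from the gene tables, as 10 of the 55364 genes listed for round spermatid RNA and 10 of the 55401 listed for CB RNA, and all 10 passed the filter on low counts in both kinds of library. The knock-in mice were altered at Ddx4, which encodes an RNA helicase (Vasa) that is part of germ granules, and all RNA came from testis cells freed by a digestion in 2 steps. Round spermatid RNA was profiled in homozygous knock-in, heterozygous knock-in and wild-type (WT) mice, with 2 libraries each, and these were built by the NEBNext Ultra kit using 1 ug of RNA. CB RNA was profiled in homozygous and heterozygous knock-in mice, with 3 libraries each, made from 25 ng of RNA with a strand-specific Hieff dual-mode kit that was used with neither polyA selection nor ribosome depletion. The labels do not spell out CB and name the source of these libraries only as germ cells, and wild-type CB RNA was not analysed here. They do not state whether the libraries of a group came from separate animals, so p-values measure the spread between these libraries, which may be technical.

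The mammalian sperm tail carries its microtubule axoneme inside stiff accessory structures. Outer dense fibres run along the midpiece and principal piece, the fibrous sheath encloses the principal piece and anchors kinases and glycolytic enzymes, and a mitochondrial sheath wraps the midpiece. Many of the transcripts for these parts are made in round spermatids, stored, and translated days later in elongating spermatids, when transcription has ceased.

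The 10 genes lie on 9 chromosomes of the GRCm38.p6 annotation, with Smcp and Oaz3 both on chromosome 3. Promoter sequences from RefSeq for that build were matched for 8 genes, as 13 promoters, and 5 stretches of 100 bases that end just before an annotated start are shown because they hold, or lack, the motif letters counted below. The Akap3 stretch is chr6:126852998-126853097 on the plus strand, and the Akap4 stretch is chrX:7067415-7067514 on the plus strand. The Gapdhs stretch is chr7:30743682-30743781 on the minus strand, before 1 of 2 annotated starts of that gene. The Spata18 stretch is chr5:73651280-73651379 on the plus strand, and the Smcp stretch, which holds none of the letters, is chr3:92589074-92589173 on the minus strand. All are written 5′ to 3′ along the gene, and capitals mark TGATGTCA, TGACG or AACAAT on either strand, so that TGACATCA, CGTCA and ATTGTT are the same letters read on the other strand.
Akap3: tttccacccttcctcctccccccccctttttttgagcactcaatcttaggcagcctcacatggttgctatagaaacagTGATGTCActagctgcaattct
Akap4: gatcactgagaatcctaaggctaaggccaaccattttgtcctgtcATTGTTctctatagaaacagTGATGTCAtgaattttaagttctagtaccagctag
Gapdhs: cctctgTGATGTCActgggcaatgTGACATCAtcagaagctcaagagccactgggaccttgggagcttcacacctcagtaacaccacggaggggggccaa
Spata18: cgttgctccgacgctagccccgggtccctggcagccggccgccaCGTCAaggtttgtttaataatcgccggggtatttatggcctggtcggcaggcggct
Smcp: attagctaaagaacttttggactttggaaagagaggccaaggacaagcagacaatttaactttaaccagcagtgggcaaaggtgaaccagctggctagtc

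Within 250 bases before the start and on either strand, the cyclic AMP response element TGACGTCA was in none of the 13 promoters, against 1.55% of the 32851 promoters in the table. Its shorter core TGACG, which every full element also holds, was in 3 promoters of Odf2 and Spata18, against 17.8% of all promoters. The letters AACAAT, bound by Sox factors, were in 1 promoter, that of Akap4, against 9.42% of all. The TATA box letters TATAAA and the RFX letters GTTGCC were in none of the 13, against 12.4% and 10.4% of all. The variant TGATGTCA, counted after the promoters had been read, was in 4 of the 13 promoters, those of Akap3, Akap4 and Gapdhs, against 962 promoters or 2.93% of all. In Akap3 and Akap4 it closed a shared run of 20 bases, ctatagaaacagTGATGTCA, that began 34 bases before the Akap3 start and 47 bases before the Akap4 start and was in 2 of the 32851 promoters.

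Total counts came to between 15.3 and 24.9 M in a round spermatid library and between 14.2 and 16.5 M in a CB library. The 10 transcripts made up 1.36% to 1.54% of all counts in round spermatid RNA and 0.480% to 0.595% in CB RNA. Ddx4 itself had 121 and 130 CPM (counts scaled to library size with edgeR's TMM factors) in homozygous round spermatids, 406 and 403 CPM in heterozygous and 443 and 521 CPM in WT ones, but 244 to 307 CPM in homozygous and 277 to 365 CPM in heterozygous CB RNA, where the groups overlapped. Round spermatid markers were abundant in round spermatid RNA, with 9 of 9 genes counted and a summed 2807 to 3861 CPM, and were lower in CB RNA at 478 to 663 CPM. Within groups, 1 library of each kind stood apart. In WT round spermatids, library 1 carried 19.3% of its counts in genes shorter than 1000 bases, against 11.3% to 12.7% in the other 5 libraries, and a summed 17997 CPM of the late spermatid genes Prm1, Prm2, Tnp1 and Tnp2 against 7739 CPM in library 2. In heterozygous CB RNA, library 1 differed from libraries 2 and 3 by a chi-square of 28.6 and 28.5 per degree of freedom over genes, against 5.27 between libraries 2 and 3.

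The CB comparison addressed whether the tail transcripts differed between homozygous and heterozygous knock-in mice in the preparation made from the smaller RNA input. Of the 10 genes, 5 fell in homozygous CB RNA and none rose: Tppp2, Oaz3, Odf1, Spata18 and Gapdhs, at 0.487 to 0.711 of the heterozygous level. Smcp had 0.531 of the heterozygous level but missed the threshold, while the values of Odf2, Odf4, Akap3 and Akap4 did not pass the test. Over all 19335 genes tested, edgeR's quasi-likelihood test called 1.72% in either direction and 0.559% as lower at a Benjamini-Hochberg adjusted p below 0.05. The median log2 difference was -0.54 over the 10 genes and -0.0048 over all genes. In 8 of the 10 genes every homozygous library lay below every heterozygous one, as in 9.78% of all genes, the exceptions being Odf2 and Akap3.

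Among the outer dense fibre genes, Odf1, which encodes the main small heat shock-like protein of the fibres, had 231, 232 and 245 CPM in the homozygous CB libraries, against 309, 489 and 462 CPM in the heterozygous ones. The groups did not overlap, and heterozygous library 1 was the lowest of its group. Odf1 fell by 0.83 ± 0.16 on the log2 scale (SE, edgeR adjusted p = 0.0297). Odf2, which encodes a scaffold protein of the fibres that also occurs at centrosomes, had 2530, 2364 and 2598 CPM in homozygous CB libraries, against 3311, 2415 and 2286 CPM in heterozygous ones. Here library 1 was the highest of the 6 and the other heterozygous libraries lay at or below the homozygous range, with a log2 difference of -0.10 ± 0.16 (edgeR adjusted p = 0.836). Odf4, a membrane-associated fibre protein, had 38.8, 42.7 and 41.2 CPM in homozygous and 48.5, 45.8 and 48.3 CPM in heterozygous CB libraries. Its groups did not overlap but lay close, and the log2 difference of -0.22 ± 0.10 did not pass (edgeR adjusted p = 0.357).

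Of the 3 fibrous sheath genes, 1 passed the test in CB RNA. Akap3 and Akap4 encode the A-kinase anchoring proteins that form much of the sheath. Akap3 had 613, 603 and 664 CPM in homozygous CB libraries and 642, 606 and 600 CPM in heterozygous ones, so that the groups overlapped fully (log2 difference 0.02 ± 0.10, edgeR adjusted p = 0.946). Akap4 had 702, 658 and 714 CPM in homozygous CB libraries and 828, 773 and 759 CPM in heterozygous ones. Each homozygous Akap4 value was the lower, but by less than the test required (log2 difference -0.19 ± 0.10, edgeR adjusted p = 0.454). Gapdhs, the sperm-specific glyceraldehyde-3-phosphate dehydrogenase bound to the sheath, had 214, 218 and 225 CPM in homozygous CB libraries, against 275, 336 and 313 CPM in heterozygous ones. Its groups were clear of each other, and it fell by 0.49 ± 0.11 on the log2 scale, just past the threshold (edgeR adjusted p = 0.0481), and with a replicate block it did not pass (0.15).

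The remaining 4 genes included the largest differences. Tppp2, of the tubulin polymerization promoting family, had 8.01, 7.25 and 8.08 CPM in homozygous CB libraries, from 115 to 133 counts each, and 11.5, 19.4 and 17.0 CPM in heterozygous ones, from 161 to 279 counts. It was the least abundant of the 10 and fell by 1.04 ± 0.19 on the log2 scale (edgeR adjusted p = 0.0254). Oaz3, the testis-specific ornithine decarboxylase antizyme, which limits polyamine synthesis, had 107, 102 and 107 CPM in homozygous CB libraries, against 134, 220 and 213 CPM in heterozygous ones. The 3 homozygous values were nearly equal while heterozygous library 1 lay between the groups, and Oaz3 fell by 0.84 ± 0.17 (edgeR adjusted p = 0.0344). Smcp, a cysteine-rich protein of the capsule around sperm mitochondria, had 303, 296 and 285 CPM in homozygous CB libraries and 352, 659 and 653 CPM in heterozygous ones. Library 1 of the heterozygous group sat next to the homozygous values, and the log2 difference of -0.91 ± 0.20 missed the threshold (edgeR adjusted p = 0.0557). Spata18, which encodes a regulator of mitochondrial quality, had 195, 190 and 213 CPM in homozygous CB libraries and 285, 317 and 291 CPM in heterozygous ones. All 3 heterozygous values were well above the homozygous range, and Spata18 fell by 0.58 ± 0.10 (edgeR adjusted p = 0.0187, and 0.0825 with a replicate block).

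**Figure D1:**
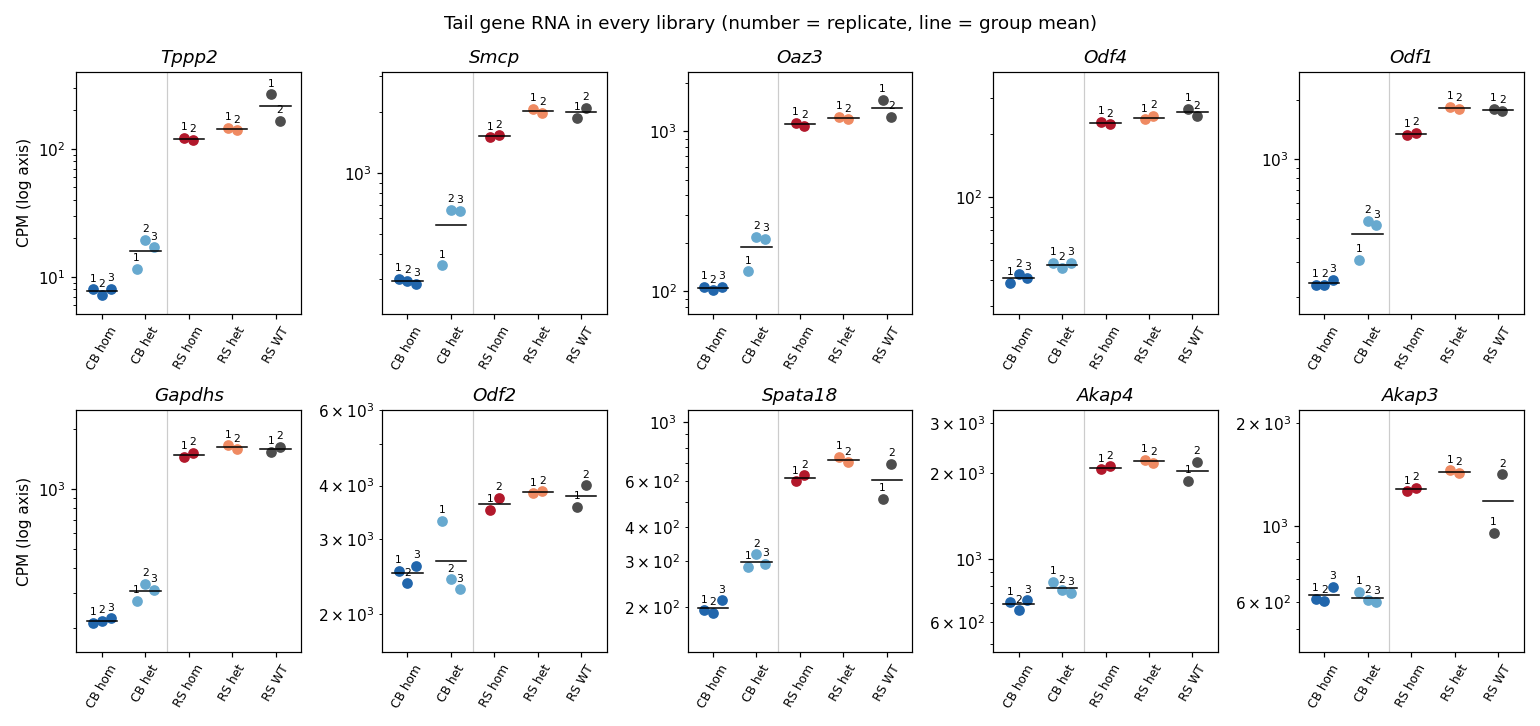
CPM of each gene in every library on a log axis, with homozygous (hom) left of heterozygous (het) libraries and WT last; points are libraries with their replicate number and lines are group means. In CB RNA heterozygous library 1 sits between the homozygous libraries and the other heterozygous ones for Tppp2, Smcp, Oaz3 and Odf1 (Smcp 352 CPM, against 285 to 303 in homozygous libraries and 653 to 659 in heterozygous libraries 2 and 3).

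The calls in CB RNA depended on single libraries. Without any 1 of the 3 homozygous libraries, or without heterozygous library 2 or 3, none of the 10 genes passed. Calls over all genes dropped as well, to between 0.256% and 0.65%, against 1.72% with all libraries. The median over the 10 genes stayed between -0.48 and -0.57 on the log2 scale. Without heterozygous library 1, 6 of the 10 fell, Smcp among them (log2 difference -1.17, edgeR adjusted p = 2.7e-06), with 11.0% of all genes called in that fit. Relative to the mean of libraries 2 and 3, heterozygous library 1 held 0.536 of the Smcp level, 0.618 of Oaz3, 0.633 of Tppp2 and 0.649 of Odf1. It held 0.850 of the Gapdhs and 0.936 of the Spata18 level, and for Odf4, Akap3, Akap4 and Odf2 the ratio was 1.03, 1.06, 1.08 and 1.41. The same library had the highest summed level of the 4 late spermatid genes, 1421 CPM against 926 and 822 CPM in libraries 2 and 3. It also had the lowest sum of 8 pachytene spermatocyte markers among heterozygous CB libraries, at 940 CPM against 1332 and 1547 CPM, and low sums of other markers. Spermatogonial markers summed to 47.6 CPM in library 1 against 96.7 and 96.4 CPM in libraries 2 and 3, Leydig markers to 73.0 against 127 and 126 CPM, Sertoli markers to 63.5 against 117 and 107 CPM, and immune markers to 7.02 against 13.01 and 12.96 CPM. The part of these markers in its tail gene values was not tested.

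**Figure D2:**
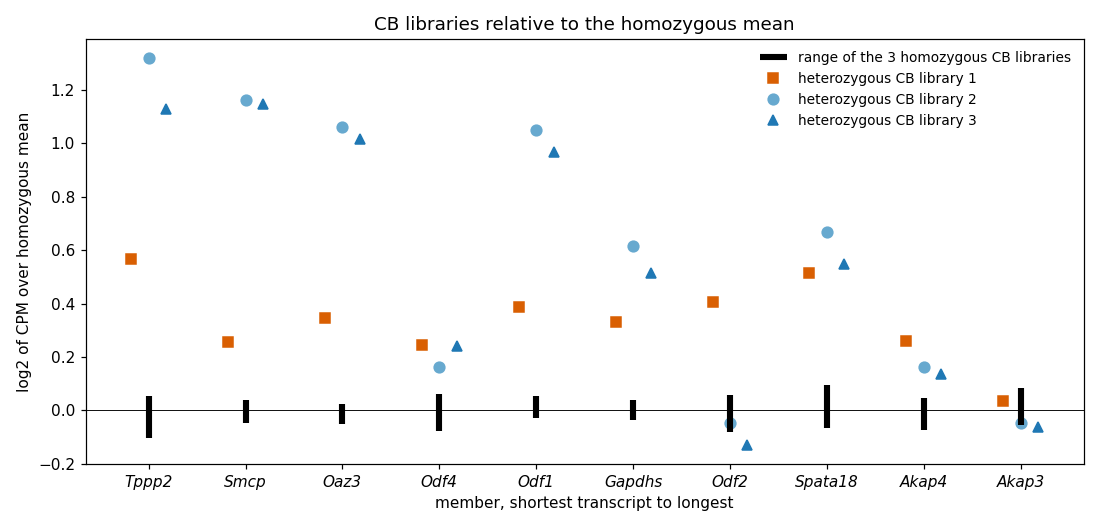
log2 of CPM over the mean of the 3 homozygous CB libraries (y axis) for each gene, ordered from the shortest to the longest transcript (x axis); black bars span the 3 homozygous libraries and symbols are the heterozygous libraries. Libraries 2 and 3 lie close together for every gene, while library 1 lies below both for Tppp2, Smcp, Oaz3, Odf1, Gapdhs and Spata18 and above both for Odf2, Akap4, Akap3 and, by little, Odf4.

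Few markers of germ cell stages were called between genotypes in CB RNA. All 9 of 9 round spermatid markers were detected, with a summed 478 to 544 CPM in homozygous and 617 to 663 CPM in heterozygous CB libraries, and all 9 log2 differences were negative (median -0.17), 1 of them called (Spaca1, an acrosome membrane gene, -0.49, edgeR adjusted p = 0.0431). The 4 of 4 late spermatid genes summed to 658 to 696 CPM in homozygous and 822 to 1421 CPM in heterozygous CB libraries. Of these, Prm1, a protamine, fell by 1.27 (edgeR adjusted p = 0.0216), while Prm2 (-0.58), Tnp1 (-0.66) and Tnp2 (-0.33) did not pass. The 8 of 8 pachytene markers overlapped between groups, at 1206 to 1549 CPM in homozygous and 940 to 1547 CPM in heterozygous libraries. Marker genes of somatic cells were detected in CB RNA, with Leydig genes at 140 to 151 CPM in homozygous and 73.0 to 127 CPM in heterozygous libraries, and Sertoli genes at 74.0 to 79.4 CPM in homozygous and 63.5 to 117 CPM in heterozygous libraries. Immune markers (8 of 8 above 0) summed to 14.6 to 16.6 CPM in homozygous and 7.02 to 13.01 CPM in heterozygous CB libraries, without overlap, and 1 of them was called, Cd74, a gene of antigen presentation (log2 difference 1.60, edgeR adjusted p = 0.0343). Peritubular and vascular markers (5 of 5) were likewise higher in each homozygous library, at 41.9 to 44.4 CPM in homozygous and 30.2 to 40.9 CPM in heterozygous ones, with none called. Spermatogonial and erythroid sums overlapped, at 80.6 to 82.2 and 4.98 to 6.07 CPM in homozygous and 47.6 to 96.7 and 4.01 to 8.21 CPM in heterozygous libraries. The part of these stages and cell types in the tail gene differences was not tested. In bulk RNA, fewer cells of a type and less of an RNA in each cell cannot be told apart.

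In round spermatid RNA the question was whether the same genes differed between homozygous cells and heterozygous or WT cells. None of the 10 passed the test in either comparison, and the differences pointed down for most: the median log2 difference was -0.15 against heterozygous and -0.13 against WT cells. Against heterozygous cells, where edgeR called 1.73% of 17809 genes, all 10 differences were negative and in all 10 both homozygous libraries lay below both heterozygous ones, as in 32.0% of all genes. At an unadjusted p below 0.05 there were 2 of the 10, against 2969 of all 17809 genes. DESeq2 called none of the 10, against 4.39% of all genes. Against WT cells, where edgeR called 2.86% of genes, 7 differences were negative and 6 genes were fully separated and lower, as in 25.0% of all genes. There 4 of the 10 had an unadjusted p below 0.05, against 4044 of all 17809 genes. DESeq2 called 1 of the 10, Tppp2, against 6.77% of all genes. These comparisons share the homozygous libraries.

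Odf1 and Smcp gave the clearest separation. Odf1 had 1331 and 1359 CPM in homozygous round spermatids, against 1844 and 1797 CPM in heterozygous and 1795 and 1763 CPM in WT ones. The 2 homozygous libraries stood well below all 4 others, yet the log2 differences of -0.44 ± 0.08 against heterozygous and -0.40 ± 0.08 against WT cells missed the threshold (edgeR adjusted p = 0.0642 and 0.0613). Smcp had 1504 and 1541 CPM in homozygous round spermatids, against 2075 and 1988 CPM in heterozygous and 1881 and 2108 CPM in WT ones. It likewise lay below all 4 other libraries, with log2 differences of -0.42 ± 0.09 from heterozygous and -0.39 ± 0.09 from WT cells (edgeR adjusted p = 0.1 and 0.0885). Tppp2 had 122 and 118 CPM in homozygous, 146 and 140 CPM in heterozygous and 266 and 165 CPM in WT round spermatids. Its groups followed one another without overlap, but WT library 1 lay far above WT library 2, and the log2 difference from WT of -0.85 ± 0.22 did not pass (edgeR adjusted p = 0.106).

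Oaz3 had 1133 and 1085 CPM in homozygous, 1231 and 1187 CPM in heterozygous and 1566 and 1233 CPM in WT round spermatids, again with WT library 1 the highest. Spata18 had 598 and 629 CPM in homozygous, 738 and 704 CPM in heterozygous and 514 and 696 CPM in WT round spermatids. For Spata18 the homozygous values fell inside the WT range. Akap3 showed the same arrangement, with 1263 and 1292 CPM in homozygous, 1452 and 1431 CPM in heterozygous and 953 and 1416 CPM in WT round spermatids. Akap4 had 2064 and 2114 CPM in homozygous, 2226 and 2176 CPM in heterozygous and 1885 and 2196 CPM in WT round spermatids. For both anchoring protein genes WT library 1 was the lowest of the 6. Odf2 lay between 3509 and 4005 CPM, Odf4 between 223 and 265 CPM and Gapdhs between 1452 and 1661 CPM in all 6 libraries, with log2 differences of homozygous from heterozygous cells of -0.09, -0.09 and -0.12.

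The heterozygous cells did not differ from WT cells by this test in any gene: edgeR called 0.0% of 17809 genes, with 1296 genes at an unadjusted p below 0.05 and 5 genes called by DESeq2. Of the 10 genes 1, Tppp2, had an unadjusted p below 0.05 (log2 difference -0.60 ± 0.22, edgeR adjusted p = 0.519), and in 2 genes both heterozygous libraries lay below both WT libraries, as in 22.1% of all genes. Leaving out 1 WT library leaves 1 in that group, and calls are not read from those fits. The median log2 difference of the 10 was 0.030 with both WT libraries, 0.11 without WT library 2 and -0.016 without WT library 1.

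Every round spermatid group held 2 libraries, so leaving out any of them leaves 1 in its group. Calls are not read from those fits. Without WT library 1 the median log2 difference of the 10 genes was -0.15 against WT and -0.15 against heterozygous cells. Without WT library 2 it was -0.13 against WT and -0.15 against heterozygous cells. On leaving out a homozygous or heterozygous library it stayed at -0.18 to -0.14 against heterozygous and -0.13 to -0.12 against WT cells. When homozygous and heterozygous libraries were fitted alone, 7 of the 10 fell, with 32.3% of all genes called, against none of the 10 with the WT libraries included. The 9 of 9 round spermatid markers summed to 2807 to 2881 CPM in homozygous, 3145 to 3220 CPM in heterozygous and 3292 to 3861 CPM in WT libraries. The 4 late spermatid genes summed to 8125 to 8275 CPM in homozygous, 7186 to 7645 CPM in heterozygous and 7739 to 17997 CPM in WT libraries. Immune markers, 8 of 8 above 0 in each group, summed to 33.0 to 33.6 CPM in homozygous, 25.7 to 26.5 CPM in heterozygous and 14.7 to 15.7 CPM in WT libraries. The 9 Sertoli markers had median sums of 21.4 CPM in homozygous, 39.1 CPM in heterozygous and 45.5 CPM in WT libraries. Leydig markers summed to 15.1 to 16.4 CPM in homozygous libraries, 8.19 to 9.15 CPM in heterozygous ones, where Lhcgr was at 0, and 5.35 to 7.96 CPM in WT ones. Peritubular and vascular markers summed to 46.3 to 46.8 CPM in homozygous, 30.9 to 33.2 CPM in heterozygous and 20.3 to 24.0 CPM in WT libraries. Against WT cells edgeR called higher 2 of 8 immune and 2 of 4 tested peritubular and vascular markers. It also called 1 of 4 tested Leydig markers higher and 2 of 6 tested Sertoli markers lower. Over all genes it called 2.86% there in either direction. None of the round spermatid markers or late spermatid genes was called there, and none of all these markers against heterozygous cells. The part of these markers in the tail gene values was not tested.

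**Figure D3:**
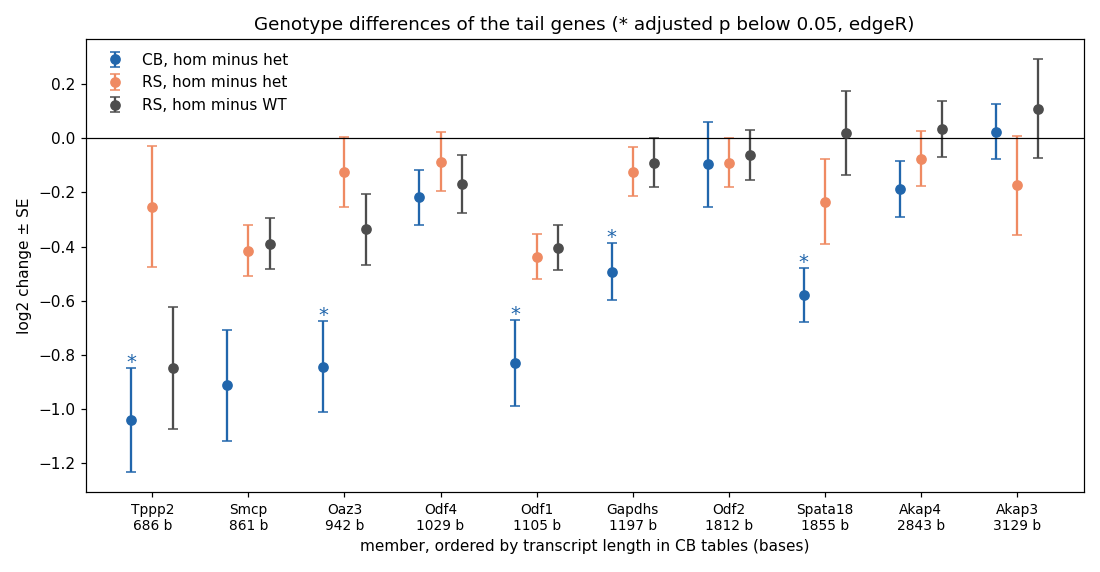
log2 difference ± SE (y axis) of each gene for homozygous minus heterozygous CB RNA, homozygous minus heterozygous round spermatid RNA and homozygous minus WT round spermatid RNA; genes run from the shortest to the longest transcript (x axis, in bases), and asterisks mark an edgeR adjusted p below 0.05. Only CB differences carry asterisks (Tppp2, Oaz3, Odf1, Gapdhs and Spata18), and the longest genes Akap3 and Akap4 lie near 0.

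Whether the homozygous against heterozygous difference itself differed between CB and round spermatid RNA was tested by an interaction term over all 12 libraries. edgeR called 0.209% of 22002 genes and none of the 10, and DESeq2 also called none of them. For 8 of the 10 the difference was more negative in CB RNA, with a median of -0.30, against 0.06 over all genes. Before adjustment 2 of the 10 were below 0.05, as were 1959 of all 22002 genes. The 2 were Tppp2 (-0.73 ± 0.30 on the log2 scale, edgeR adjusted p = 0.512) and Oaz3 (-0.66 ± 0.27, edgeR adjusted p = 0.505). A difference between CB and round spermatid RNA in the genotype effect was not established for any of them.

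Among the 10 genes the CB difference tended to be nearer 0 in longer transcripts, but not in strict order. Odf4 (1029 bases) had a log2 difference of -0.22, while Odf1 (1105 bases) had -0.83 and Spata18 (1855 bases) -0.58. In CB RNA the 3 genes under 1000 bases, Tppp2 (686 bases), Smcp (861) and Oaz3 (942), had a median log2 difference of -0.91, against -0.13 over all 2583 genes of that length class, of which 1.05% were called lower. The 5 genes of 1000 to 2000 bases, Odf1, Odf2, Odf4, Gapdhs and Spata18, had a median of -0.49, against -0.03 over 6120 genes. Akap4 (2843 bases) and Akap3 (3129 bases) had a median of -0.08, against 0.03 over 10632 genes. Across the 10 genes, which are not independent replicates, Spearman's rho between length and log2 difference was 0.855 in CB RNA, against 0.170 over all genes. In round spermatid RNA it was 0.867 for homozygous against WT cells (0.335 over all genes) 0.867 for heterozygous against WT cells (0.559 over all genes) and 0.382 for homozygous against heterozygous cells (-0.114 over all genes). Once the trend with length over all genes had been taken out in CB RNA, Odf1 (-0.78, edgeR adjusted p = 0.0453) and Spata18 (-0.57, edgeR adjusted p = 0.0255) passed, and Tppp2 (-0.92, 0.0676), Oaz3 (-0.77, 0.0679) and Gapdhs (-0.45, 0.0789) no longer did.

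Levels between genes were compared per length, in TPM, the deposited unit that divides by transcript length. In homozygous CB RNA, Odf2 was the highest at 3476 ± 203 TPM (SD, n = 3), followed by Smcp at 1023 ± 27.0 TPM. Next came Odf1 at 591 ± 24.1 and Akap4 at 579 ± 23.9 TPM, whose ranges overlapped, then Gapdhs at 500 ± 30.6 and Akap3 at 475 ± 34.5 TPM, which overlapped as well. Oaz3 (324 ± 18.5 TPM), Spata18 (268 ± 17.1 TPM), Odf4 (112 ± 4.30 TPM) and Tppp2 (36.9 ± 3.35 TPM) followed without overlap. In heterozygous CB RNA Odf2 (3299 ± 434 TPM) and Smcp (1764 ± 647 TPM) again led, while the genes from Smcp down to Akap3 overlapped with their neighbours.

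In round spermatids the order was different at the top. Smcp was the highest gene in homozygous cells at 3353 ± 99.7 TPM (SD, n = 2), in heterozygous cells at 4488 ± 211 TPM and in WT cells at 3791 ± 1088 TPM. In homozygous cells it was followed by Odf2 at 2611 ± 153 TPM, by Gapdhs at 2176 ± 88.6 and Oaz3 at 2158 ± 45.6 TPM, which overlapped, and by Odf1 at 2043 ± 57.2 TPM. The anchoring protein genes were lower, Akap4 at 990 ± 29.8 TPM and Akap3 at 560 ± 16.0 TPM, and Spata18 (488 ± 23.7 TPM), Odf4 (383 ± 7.64 TPM) and Tppp2 (338 ± 4.53 TPM) closed the order.

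Set beside round spermatid RNA of the same genotype, CB RNA held more Odf2 and less of the other 9 in TPM. The order for Odf2 depends on the scale: it had 2364 to 2598 CPM and a deposited 1499 to 1671 FPKM in homozygous CB RNA, below the 3509 to 3744 CPM and 2170 to 2287 FPKM of homozygous round spermatids. The ratio of mean TPM, CB over round spermatid, was 1.33 in homozygous and 1.18 in heterozygous samples for Odf2. In homozygous and heterozygous samples it was 0.849 and 0.668 for Akap3, 0.585 and 0.570 for Akap4, and 0.550 and 0.635 for Spata18. Each of these ratios was above those of the next 4 genes. In homozygous and heterozygous samples the ratio was 0.305 and 0.393 for Smcp, 0.289 and 0.346 for Odf1, 0.292 and 0.288 for Odf4, and 0.230 and 0.269 for Gapdhs. The lowest ratios were those of Oaz3, at 0.150 in homozygous and 0.225 in heterozygous samples, and Tppp2, at 0.109 in homozygous and 0.177 in heterozygous samples. The kit, the RNA input and the kind of preparation all differed between CB and round spermatid libraries and cannot be told apart, so these ratios carry no test.

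**Figure D4:**
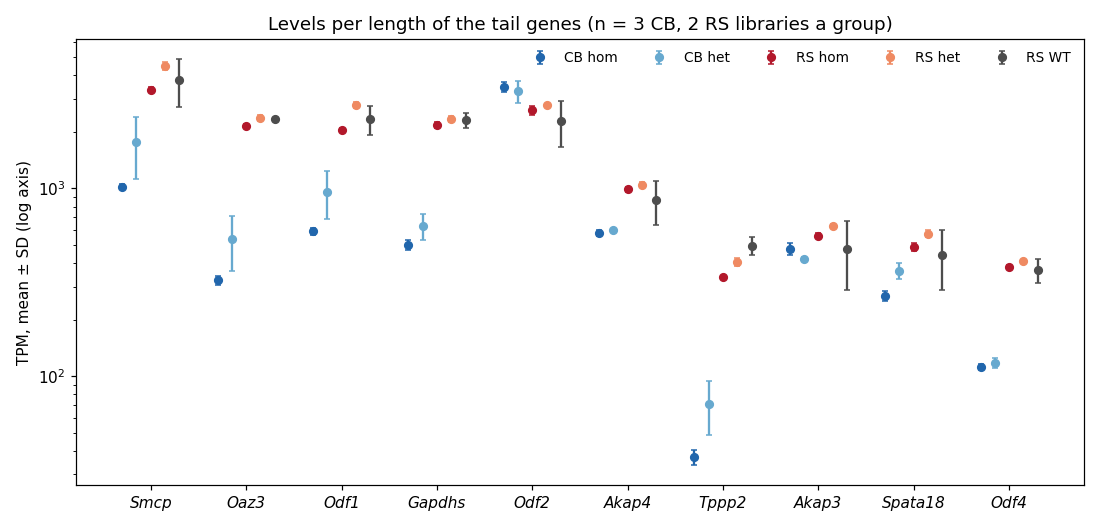
Mean TPM ± SD of each gene by group on a log axis (3 libraries a group in CB RNA, 2 in round spermatid RNA); genes are ordered along the x axis by level in round spermatids. In TPM, though not in FPKM or CPM, Odf2 is the single gene with mean CB levels above its homozygous and heterozygous round spermatid levels (3476 TPM in homozygous CB RNA and 2611 TPM in homozygous round spermatids), and Tppp2 and Oaz3 show the widest gap.

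Transcript shares, the deposited percentage of a gene's TPM given to each isoform, separated the genotypes for Akap4. Of its 3 listed transcripts, the longer of the 2 main ones (ENSMUST00000057101, 2851 bases) took 20.5% and 21.0% of Akap4 in homozygous round spermatids, 28.8% and 29.0% in heterozygous and 30.1% and 30.3% in WT ones. Both homozygous libraries lay below all 4 others, in a gene whose total level overlapped between homozygous and WT cells. In CB RNA the share was 15.5%, 11.4% and 14.9% in homozygous libraries and 23.0%, 16.7% and 17.1% in heterozygous ones, again without overlap. The other main transcript (ENSMUST00000115751, 2838 bases) took 78.5% ± 0.750 in homozygous (SD, n = 2), 70.0% ± 0.106 in heterozygous and 69.0% ± 0.750 in WT round spermatids. The main transcripts are nearly equal in length, how many reads tell them apart was not tested, and the shares are given as a description without a test.

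**Figure D5:**
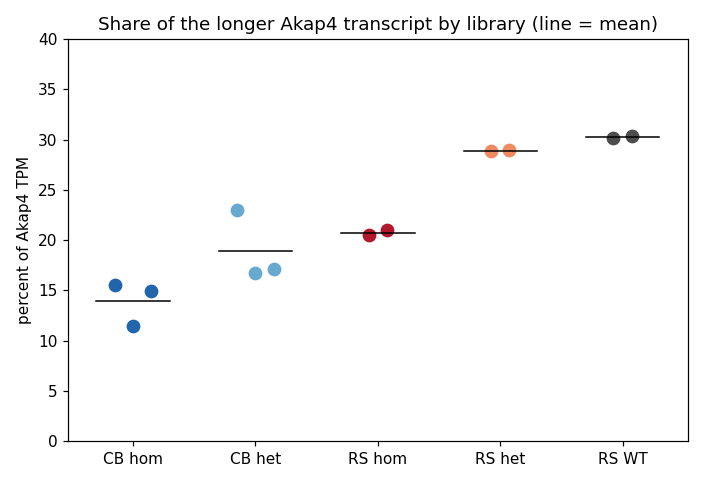
Share of the longer main Akap4 transcript in percent of Akap4 TPM (y axis) in each library by group, with group means as lines. The homozygous libraries lie below the heterozygous ones in both CB RNA (11.4% to 15.5%, against 16.7% to 23.0%) and round spermatids (20.5% to 21.0%, against 28.8% to 29.0%).

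Homozygous libraries lay apart from all others in other genes too. Counting transcripts of tested genes with a mean share of at least 10% in 1 group and no more than 90% in another, 7 of 17 from the 10 genes separated the homozygous from the other 4 round spermatid libraries, 3 below and 4 above them, as did 7.33% of 30101 such transcripts below and 8.83% above. In CB RNA it was 3 of 16, 2 below and 1 above, against 5.33% and 5.59% of 36425. Transcripts of 1 gene share its reads and are not independent. For Odf4, 1 transcript (ENSMUST00000130271) took 46.9% and 46.1% in homozygous, 48.5% and 50.01% in heterozygous and 50.5% and 51.2% in WT round spermatids. Between CB and round spermatid RNA the shares of Tppp2 and Odf2 also differed. Tppp2 has 2 listed transcripts, and the shorter one (ENSMUST00000177625, 627 bases) was listed at 0 in all 6 round spermatid libraries. In CB RNA it took 42.8% ± 6.50 of Tppp2 in homozygous and 54.9% ± 7.37 in heterozygous libraries (SD, n = 3). Odf2 has 25 listed transcripts, of which 3 reached 10% in any group. The largest of these (ENSMUST00000028128) took 40.5% in homozygous and 38.6% in heterozygous CB RNA, and 46.4%, 46.9% and 51.3% in homozygous, heterozygous and WT round spermatids. A second (ENSMUST00000113762) took 2.42% and 2.73% in homozygous and heterozygous CB RNA, and 16.3%, 14.2% and 12.5% in homozygous, heterozygous and WT round spermatids, where both homozygous libraries (16.3% each) lay above the other 4 (9.44% to 15.5%). The third (ENSMUST00000113767) took 5.37% and 5.80% in homozygous round spermatids, against 6.10% and 6.54% in heterozygous and 14.4% and 7.14% in WT ones. Akap3 shares were erratic, with 40.3% to 99.3% for its longest transcript among the 3 homozygous CB libraries, and no difference is read from them. Odf1 has a single listed transcript, and the main Smcp transcript took no less than 99.9% of its TPM in the group means, to 1 decimal.

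Oaz3 counts were fractional in 12 of 12 libraries and Gapdhs counts in 1, as is the case where a read is divided among loci, while the other 8 genes had whole counts throughout. In the annotation Oaz3 overlaps Tdrkh and Gapdhs overlaps Sbsn, both protein-coding, and Smcp and Spata18 overlap the long noncoding genes Gm35639 and Gm34902. Where reads of the round spermatid kit were counted without strand, reads of overlapping genes cannot be told apart, and the labels do not state the strand setting.

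In 3 lists of genes known to act with these members, 1 gene each fell in homozygous CB RNA. Over all genes the test called 1.72% there in either direction and 0.559% as lower. Of 14 tested outer dense fibre partners, 1 fell in homozygous CB RNA: Spag5, a spindle and microtubule-associated protein gene, at 191 ± 10.3 CPM in homozygous and 292 ± 5.61 CPM in heterozygous libraries (SD, n = 3, log2 difference -0.61, edgeR adjusted p = 0.0122). In round spermatids 1 rose against heterozygous cells, Odf3b (log2 difference 0.84, edgeR adjusted p = 0.0454), and none of the 14 was called against WT, where Odf3b had a log2 difference of 0.64 (edgeR adjusted p = 0.0646). Odf3, named for the outer dense fibres, had -0.53 in CB RNA (edgeR adjusted p = 0.065). Of 16 tested fibrous sheath proteins and partners, 1 fell in CB RNA: Fscb, a calcium-binding sheath protein gene, at 223 ± 18.2 CPM in homozygous and 325 ± 16.7 CPM in heterozygous libraries (log2 difference -0.54, edgeR adjusted p = 0.0306). Larger in size but not called were Txndc8, a spermatid thioredoxin gene, at -0.65 in CB RNA (edgeR adjusted p = 0.175), and Ropn1l, a ropporin-like sheath gene, at -0.70 in homozygous against WT round spermatids (0.12). The medians of these lists in CB RNA were -0.25 and -0.08. None of 11 sperm glycolysis genes and none of 15 mitochondrial sheath and annulus genes was called in CB RNA, with medians of -0.11 and -0.06. Their largest CB differences were -0.52 for Pgk2, the testis phosphoglycerate kinase (edgeR adjusted p = 0.117), and -0.61 for Spata19, a spermatid mitochondrial protein gene (edgeR adjusted p = 0.149). Against WT round spermatids they were -0.61 for Pgam2, a phosphoglycerate mutase (edgeR adjusted p = 0.176), and 0.62 for Sept4, a septin of the annulus (0.222).

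The polyamine genes around Oaz3 were mixed. Of 8 tested in CB RNA, 1 fell, Azin2, an antizyme inhibitor, at 56.6 ± 3.52 CPM in homozygous and 91.4 ± 10.6 CPM in heterozygous libraries (log2 difference -0.69, edgeR adjusted p = 0.0156). Sms, the spermine synthase, had a larger difference of -0.74 that did not pass (edgeR adjusted p = 0.275). The single CB calls of these 3 lists depended on the libraries and the fit: with the replicate block the outer dense fibre and fibrous sheath lists had 0 called and the polyamine list 1, and each list had 0 called without any 1 homozygous library or without heterozygous library 2. Odc1, the ornithine decarboxylase that antizymes bind, had 336 ± 20.6 CPM in homozygous and 250 ± 8.45 CPM in heterozygous CB libraries, with a log2 difference of 0.43 that did not pass (edgeR adjusted p = 0.0627). Its round spermatid log2 differences were 0.28 against heterozygous and 0.38 against WT cells, neither of which passed. The Tppp2 relatives Tppp and Tppp3 had log2 differences of 0.01 and -0.03 in CB RNA.

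The genes whose profile across libraries was most like the mean profile of the 10 were taken from those of at least 10 CPM, on the log2 scale and by Pearson's r over the 6 libraries of 1 kind, as a description without a test, since the groups themselves set most of the spread. In CB RNA, over 8344 genes, they were Actl11 (r = 0.999), Sord (0.997), Clmn (0.996), Etfb (0.996) and Gpat4 (0.995). In round spermatids, over 8028 genes, they were Ect2 (r = 0.998), Prr27 (0.996), Lmntd1 (0.996), Ewsr1 (0.995) and Ccdc63 (0.995). The lists held no gene in common. The mean profile does not stand for each of the 10. Between 2 of them, r ranged from -0.738 (Akap3 and Oaz3) to 0.99 (Akap3 and Akap4) in round spermatids. In CB RNA it ranged from -0.533 (Akap3 and Smcp) to 0.997 (Odf1 and Oaz3).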

How the data were processed

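Per the file headers, the authors deposited 1 gene table and 1 isoform table per library with expected counts, TPM, FPKM, effective length and, for isoforms, the percent of the gene's TPM. The submitters' processing notes name Trim Galore and mm10; no source used here names the quantifier. Expected counts deposited by the authors, which estimate reads and can be fractions, were rounded. The deposited TPM was used for levels between genes and for isoform shares, and the deposited FPKM to check the order of levels. Small RNA files were not used here.

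Genes were filtered with filterByExpr, scaled by TMM and fitted in edgeR 4.0.16 under R 4.3.3 (quasi-likelihood), with Benjamini-Hochberg adjustment over all genes and a threshold of 0.05. Each kind of library had its own fit over 6 libraries, and the interaction used all 12. The fits were also run on simulated counts with the same spread for every gene and no library standing apart. That run does not check the calls made here. Alternatives were DESeq2 1.42.0, its size factors, no filter, a length trend removed with lowess (span 0.3), a replicate block, the compared libraries alone, and leaving out each library. Within groups, no library was a copy of another. The 10 genes, the gene lists and the tests were chosen with earlier results of these data known. Named were all 10 genes and, from the lists, those called and up to 3 a list with the largest differences.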

Additional observations from a re-analysis of the deposited data

How the results depend on the processing

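Of the 10 genes, the number called was 5 in CB RNA and 0 in each other comparison. In CB RNA it was 6 with DESeq2 (3.78% of all genes called) and 6 without the filter (2.2%). It was 5 with DESeq2 size factors (1.72%), 2 with the length trend removed (1.41%) and 3 with the replicate block (163 of all genes called, against 332). On leaving out 1 CB library it was 0 to 6, in fits that called 0.256% to 11% of all genes. In homozygous against WT round spermatids it was 1 with DESeq2 (6.77% of all genes called), 1 with the length trend removed (14%) and 2 without the filter (5.81%). In homozygous against heterozygous round spermatids it was 7 with those libraries alone, 2 with the length trend removed, 1 without the filter and 0 to 8 on leaving out 1 library. In heterozygous against WT cells it was 0 to 7 on leaving out 1 library, and the interaction gave 0 under every alternative. Over all genes, homozygous against heterozygous round spermatid calls were 32.3% with those libraries alone and 9.88% with the length trend removed. Without the filter they were 3.13%, against 1.73% in the main fit. Ranges on leaving out 1 round spermatid library come from fits with 1 library in a group, from which calls are not read. With the replicate block, all-gene calls were 182 against 510 in homozygous against WT and 12 against 308 in homozygous against heterozygous round spermatids. For the interaction they were 2 against 46. Deviations of same-numbered libraries correlated at -0.024, 0.151 and -0.143 in round spermatids and -0.003, -0.200 and -0.144 in CB RNA. With so few libraries a group, these values cannot show whether the numbers pair libraries.

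Directions changed for some log2 differences, among them that of Oaz3 for heterozygous minus WT, at -0.21 in the main fit. With the length trend removed, homozygous minus WT became -0.013 for Akap3, -0.086 for Akap4 and 0.013 for Gapdhs, heterozygous minus WT became 0.14 for Odf4, -0.046 for Akap4 and 0.054 for Oaz3, the CB difference of Akap3 became -0.0032 and the interaction of Odf4 became 0.023. The interaction of Odf2 was -0.019 with DESeq2 and -0.021 with its size factors. On leaving out 1 library, homozygous minus WT ranged from -0.15 to 0.033 for Odf2, -0.15 to 0.43 for Akap3, -0.076 to 0.16 for Akap4 and -0.19 to 0.27 for Spata18. Heterozygous minus WT ranged from -0.055 to 0.12 for Odf2, -0.012 to 0.090 for Gapdhs and -0.054 to 0.12 for Smcp. The CB difference ranged from -0.21 to 0.077 for Odf2 and -0.017 to 0.054 for Akap3, and the interaction of Odf2 from -0.0604 to 0.14. The cause was not tested. Of 640 comparisons of a gene with its main value, 530 kept direction and side of the threshold. Counts of 115 to 279 limit Tppp2 in CB RNA.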
